A study of Arabidopsis thaliana with 4 samples.

Results

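Roots of Arabidopsis Col-0 grown with JA and cytokinin together were compared with roots grown with JA alone. The comparison asks how gene expression differs when cytokinin is given along with JA. The 2 libraries were chosen by their treatment labels, out of 4 in the series, and the control and cytokinin libraries were not used for the comparison. In the JA/cytokinin library, plants stood for 7 days on half-strength MS solid medium with 10 μM MeJA and 50 nM BAP, a synthetic cytokinin. In the JA library they stood for 7 days on the same medium with 10 μM MeJA only, so both carried the JA treatment. MeJA is methyl jasmonate, which plants convert to the active form of the hormone. How many plants were pooled is not given in the sources used here. RNA came from whole roots, so fewer cells of a type and less RNA per cell cannot be told apart. Each condition had 1 library, so none of the differences could be set against replicates, and p-values are not given.

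Cytokinin binds histidine kinase receptors in the membrane, which pass a phosphate through AHP phosphotransfer proteins to the type-B ARR transcription factors. These switch on target genes, among them the type-A ARRs, which in turn dampen the pathway. AHP6 looks like a phosphotransfer protein but cannot carry the phosphate and inhibits the response. In the root vasculature this lets cells become protoxylem, while cytokinin signalling keeps neighbouring cells in a procambial state. JA acts through the receptor COI1, which removes the JAZ repressors and frees transcription factors such as MYC2.

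Expression was given as FPKM, which scales the fragments of a gene to its exon length and to the fragments mapped in the library. Of 33565 genes listed, 23050 had FPKM above 0 in both libraries and are called measured here. A gene was called higher or lower where its FPKM differed at least 2-fold between the libraries. With JA/cytokinin 2046 genes were higher, 8.88% of those measured, and 2290 were lower, 9.93%, and the median log2 ratio of all genes was 0.04. Among the 19716 measured genes with at least 1 FPKM in one library, 6.48% were higher and 8.31% lower. Ratios were more scattered at low FPKM. Of 10 equal groups of genes by FPKM, 51.4% of genes passed 2-fold in the lowest and 9.63% in the highest. Among the 15526 genes with at least 5 FPKM in one library and more than 3 estimated fragments in both, 28 were more than 16-fold higher and 91 more than 16-fold lower.

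The libraries had 115141812 reads with JA/cytokinin and 103814650 with JA, and an estimated 87.2% of the pairs with JA/cytokinin and 91.2% with JA were mapped. Intervals given for single genes are at the 95% level, come from estimated fragments and hold no error other than that of counting. The 4 annotated nuclear ribosomal RNA genes took 4.89% of all FPKM with JA/cytokinin and 1.28% with JA, and scaling the libraries without them raised all log2 ratios by 0.03. Of 11 shoot marker genes (YABBY and stomatal lineage genes), 6 with JA/cytokinin and 7 with JA were listed at 0. Their FPKM summed to 0.641 with JA/cytokinin and 0.532 with JA, and YAB1, YAB2, YAB5, MUTE and FAMA were listed at 0 in both. Reads of a gene that overlaps another may belong to its neighbour, since the use of strand is not given in the sources used here. Besides those marked where they are described, this applies to ARR1, AHP3, CKX2, CKX5, CKX6, ABCG14, SHY2, CESA4, CASP1, GSO1, FER4, PORB, PORC and CAO. Root hair markers were present in both libraries, with a summed FPKM of 616.5 with JA/cytokinin and 665.3 with JA.

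**Figure D1:**
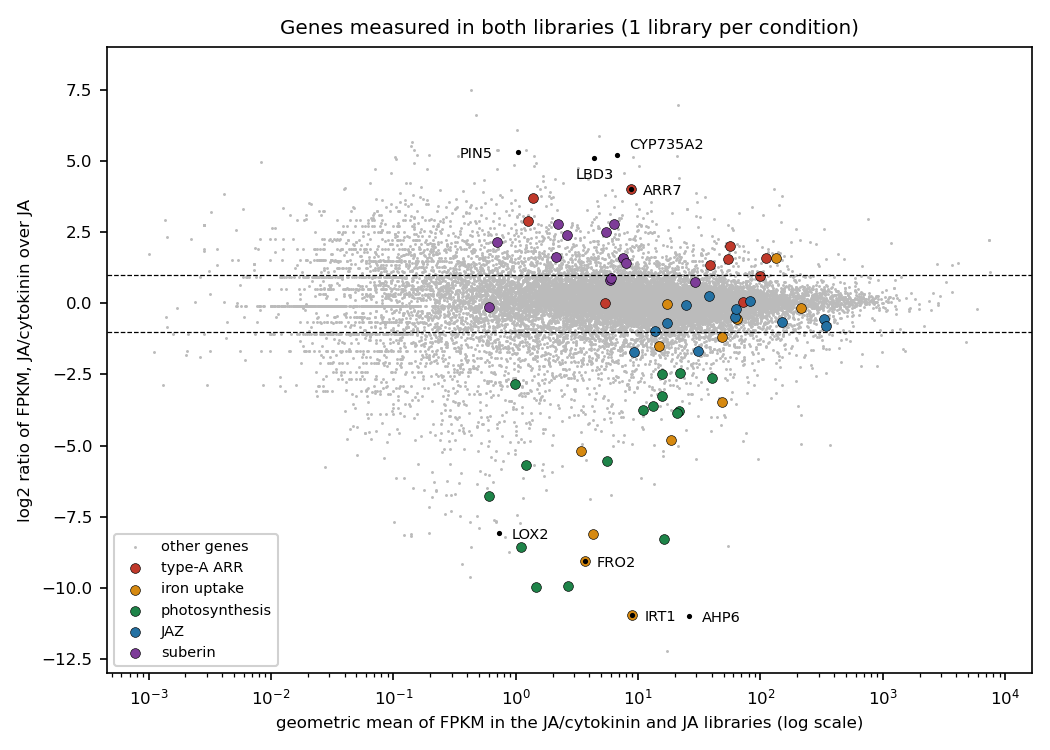
Log2 ratio of FPKM, JA/cytokinin over JA, for 23035 measured genes against the geometric mean of both FPKM values (log scale), with dashed lines at 2-fold, 5 gene lists in colour and 8 genes named; 15 genes that lie off the axes are not drawn. The 16 photosynthesis genes lie below the lower line, and AHP6 and IRT1 lie near -11.

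The clearest pattern in the cytokinin pathway was in the type-A ARRs. Of these 10 genes 7 were higher with JA/cytokinin and none was lower, and their median log2 ratio was 1.58, against 0.04 for all genes. ARR7 had 35.03 FPKM with JA/cytokinin and 2.15 FPKM with JA, a log2 ratio of 4.02 (95% interval 3.70 to 4.37). ARR16 had 4.96 FPKM with JA/cytokinin and 0.381 FPKM with JA (log2 ratio 3.70, interval 3.11 to 4.35). ARR15 had 3.41 FPKM with JA/cytokinin and 0.459 FPKM with JA (log2 ratio 2.89, interval 2.22 to 3.64). These 3 genes, with the largest ratios, were the 3 lowest of the family in JA roots. The abundant members differed less in fold and more in FPKM. ARR4 had 191 FPKM with JA/cytokinin and 63.9 FPKM with JA (log2 ratio 1.58). ARR5 had 112 FPKM with JA/cytokinin and 27.8 FPKM with JA (log2 ratio 2.01), and ARR3 had 62.1 FPKM with JA/cytokinin and 24.5 FPKM with JA (log2 ratio 1.35). ARR6, which overlaps another annotated gene, had 92.8 FPKM with JA/cytokinin and 31.3 FPKM with JA. The other members did not pass 2-fold. ARR8 had 137 FPKM with JA/cytokinin and 71.3 FPKM with JA (log2 ratio 0.94), while ARR9 had 73.0 FPKM with JA/cytokinin and 71.0 FPKM with JA and ARR17 had 5.40 FPKM with JA/cytokinin and 5.41 FPKM with JA.

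**Figure D2:**
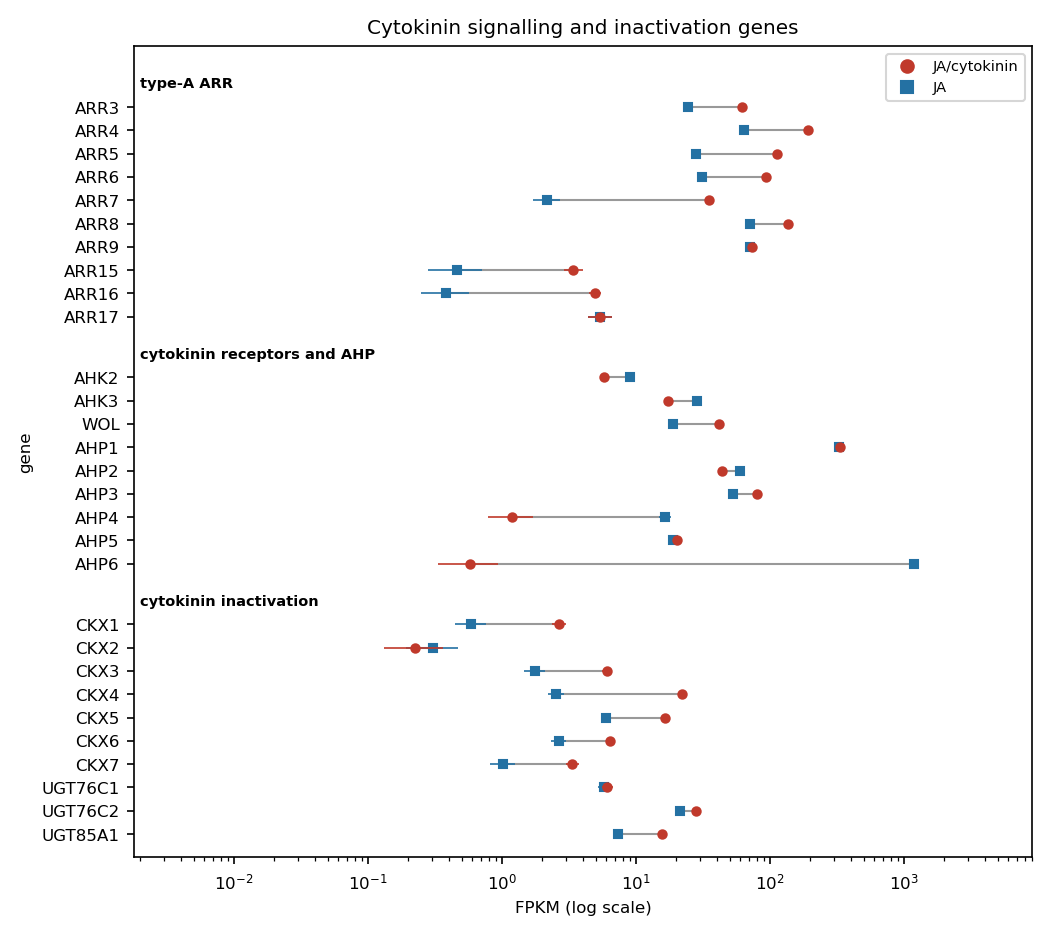
FPKM (log scale) of type-A ARRs, of receptors and phosphotransfer proteins, and of genes for cytokinin inactivation in the JA/cytokinin library (circles) and the JA library (squares), with 95% counting intervals and a line joining both libraries. ARR7 and CKX4 are far higher with JA/cytokinin, and AHP6 and AHP4 far lower.

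Promoter sequences are shown for 3 type-A ARRs that were higher, for CYP735A2, the highest ratio among the cytokinin genes, for AHP6, the lowest, and for IRT1, an iron transporter gene that was also far lower. Each is the 250 bases before the annotated gene start in the RefSeq annotation of TAIR10.1. Capitals mark AGATT and the letters of AGATC or of GGATT on either strand, which are described as cores of type-B ARR binding. Where AGATC and its reverse complement share bases, both were counted.
ARR7 (chr1:6579315-6579564, minus strand): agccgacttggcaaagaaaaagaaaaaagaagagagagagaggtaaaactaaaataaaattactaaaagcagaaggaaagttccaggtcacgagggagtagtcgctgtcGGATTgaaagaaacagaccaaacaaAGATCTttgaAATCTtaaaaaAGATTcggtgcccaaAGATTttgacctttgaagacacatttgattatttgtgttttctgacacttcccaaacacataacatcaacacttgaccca
ARR15 (chr1:28133026-28133275, minus strand): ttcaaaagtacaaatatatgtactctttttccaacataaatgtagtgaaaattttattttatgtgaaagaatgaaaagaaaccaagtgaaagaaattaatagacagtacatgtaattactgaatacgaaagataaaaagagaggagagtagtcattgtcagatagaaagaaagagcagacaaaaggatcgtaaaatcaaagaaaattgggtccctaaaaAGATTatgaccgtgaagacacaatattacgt
ARR5 (chr3:17760951-17761200, minus strand): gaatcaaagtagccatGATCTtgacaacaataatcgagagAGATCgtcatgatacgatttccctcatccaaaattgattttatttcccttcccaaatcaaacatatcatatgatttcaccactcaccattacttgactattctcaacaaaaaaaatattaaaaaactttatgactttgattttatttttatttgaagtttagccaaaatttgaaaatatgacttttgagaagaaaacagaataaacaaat
CYP735A2 (chr1:25065447-25065696, minus strand): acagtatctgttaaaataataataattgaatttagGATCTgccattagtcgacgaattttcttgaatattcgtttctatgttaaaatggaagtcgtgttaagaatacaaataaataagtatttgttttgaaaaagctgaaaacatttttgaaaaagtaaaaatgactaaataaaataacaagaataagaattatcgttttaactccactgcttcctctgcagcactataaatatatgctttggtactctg
AHP6 (chr1:30133468-30133717, plus strand): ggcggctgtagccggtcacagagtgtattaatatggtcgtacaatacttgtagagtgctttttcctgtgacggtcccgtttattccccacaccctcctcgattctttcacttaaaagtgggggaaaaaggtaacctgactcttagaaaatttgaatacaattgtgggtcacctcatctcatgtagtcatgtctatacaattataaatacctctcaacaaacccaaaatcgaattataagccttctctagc
IRT1 (chr4:10707094-10707343, plus strand): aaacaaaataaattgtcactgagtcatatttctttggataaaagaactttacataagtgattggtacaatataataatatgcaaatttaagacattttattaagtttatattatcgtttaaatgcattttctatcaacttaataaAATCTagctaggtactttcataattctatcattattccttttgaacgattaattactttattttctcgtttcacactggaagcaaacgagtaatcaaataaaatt
The ARR7 promoter holds 3 matches to AGATT, 2 to AGATC and 1 to GGATT, ARR15 holds 1 to AGATT, ARR5 holds 2 to AGATC and none to AGATT, and CYP735A2 holds 1 to AGATC. Of the genes that were lower, IRT1 holds 1 to AGATT and AHP6 holds none in this window. Such letters are frequent. AGATT stood in 62.2% of the promoters of genes that were higher, in 62.7% of those that were lower and in 62.7% of all 21758 promoters of measured genes. AGATC stood in 26.9% of promoters of higher genes, 22.5% of lower genes and 25.8% of all, and GGATT in 37.5% of promoters of higher genes, 36.6% of lower genes and 37.8% of all. The G-box CACGTG, which MYC2 is known to bind, stood in 7.01% of promoters of higher genes, 9.58% of lower genes and 7.26% of all.

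The inhibitor AHP6 had the lowest ratio of the cytokinin genes and the second lowest of the named genes with more than 3 estimated fragments in both libraries. It had 0.578 FPKM with JA/cytokinin and 1176 FPKM with JA, which is 2034-fold lower (log2 ratio -10.99, interval -11.78 to -10.30), and its value with JA/cytokinin rested on an estimated 16.7 fragments. AHP4, another phosphotransfer gene, had 1.18 FPKM with JA/cytokinin and 16.4 FPKM with JA (log2 ratio -3.80). The remaining phosphotransfer genes were not called. AHP1 had 332 FPKM with JA/cytokinin and 325 FPKM with JA, and AHP2, AHP3 and AHP5 had log2 ratios from -0.46 to 0.61. Among the receptors WOL, which is needed for vascular cell divisions, was higher, with 41.8 FPKM with JA/cytokinin and 18.9 FPKM with JA (log2 ratio 1.15). The receptors AHK2 and AHK3 had log2 ratios of -0.64 and -0.72. None of the 7 measured type-B ARRs passed 2-fold, and their median log2 ratio was -0.45. ARR1 had 30.04 FPKM with JA/cytokinin and 43.4 FPKM with JA, and ARR12 had 24.4 FPKM with JA/cytokinin and 25.6 FPKM with JA. None of the 6 CRFs, AP2-type factors that respond to cytokinin, passed 2-fold either. Over all measured genes 8.88% were higher and 9.93% lower, so lists this short can hold no called gene without differing from that share.

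Genes that remove cytokinin were mostly higher. Of 10 genes for inactivation 7 were higher and none lower, with a median log2 ratio of 1.37. CKX genes encode the oxidases that degrade cytokinin. CKX4 had 21.9 FPKM with JA/cytokinin and 2.54 FPKM with JA (log2 ratio 3.11, interval 2.90 to 3.31), and CKX1, CKX3, CKX5, CKX6 and CKX7 had log2 ratios from 1.28 to 2.19. CKX2 had 0.224 FPKM with JA/cytokinin and 0.308 FPKM with JA, within counting error. UGT85A1, which adds glucose to cytokinin, had 15.5 FPKM with JA/cytokinin and 7.31 FPKM with JA, while UGT76C1 and UGT76C2 had log2 ratios of 0.09 and 0.41. Synthesis genes went both ways. CYP735A2, which makes trans-zeatin from the isopentenyl form, had 40.7 FPKM with JA/cytokinin and 1.11 FPKM with JA, 36.7-fold higher (log2 ratio 5.20). LOG3, an enzyme that releases the active base, had 4.11 FPKM with JA/cytokinin and 1.602 FPKM with JA. In contrast IPT5, for the first step of synthesis, had 2.27 FPKM with JA/cytokinin and 5.78 FPKM with JA. IPT7, LOG1, LOG4 and LOG5 were also lower, all of them under 3 FPKM in both libraries. ABCG14, the exporter that sends cytokinin to the shoot, had 139 FPKM with JA/cytokinin and 71.4 FPKM with JA, just short of 2-fold.

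Of 5 measured genes from a list of other cytokinin-induced genes, 3 were higher. LBD3, annotated as ASL9, had 25.8 FPKM with JA/cytokinin and 0.746 FPKM with JA (log2 ratio 5.11, interval 4.48 to 5.82). SHY2, an auxin repressor that type-B ARRs activate in the root, had 6.72 FPKM with JA/cytokinin and 2.28 FPKM with JA. EXPA1, a cell wall expansin, had 104 FPKM with JA/cytokinin and 41.9 FPKM with JA. The other members, GATA22 and HBI1, were lower, but both were under 0.4 FPKM in each library.

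JA genes were less even. Of the 12 JAZ repressor genes none was higher and 2 were lower (16.7%, against 9.93% of all measured genes). Their median log2 ratio was -0.60. JAZ9 had 17.2 FPKM with JA/cytokinin and 54.5 FPKM with JA (log2 ratio -1.66), and JAZ8 had 5.12 FPKM with JA/cytokinin and 16.8 FPKM with JA (log2 ratio -1.71). JAZ1 had 273 FPKM with JA/cytokinin and 397 FPKM with JA, and JAZ10 had 260 FPKM with JA/cytokinin and 449 FPKM with JA, neither past 2-fold. MYC2 had 72.3 FPKM with JA/cytokinin and 99.3 FPKM with JA (log2 ratio -0.46), and the receptor gene COI1 had 15.2 FPKM with JA/cytokinin and 18.9 FPKM with JA. Both overlap other annotated genes. JAM1, a repressor of JA responses, was the only one of 8 perception and transcription factor genes past 2-fold (12.5%, near the 9.93% of all measured genes). It had 10.3 FPKM with JA/cytokinin and 25.3 FPKM with JA.

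Genes for JA synthesis were lower in 5 of 13 cases (38.5%, against 9.93% of all measured genes) and higher in none. LOX2, a plastid lipoxygenase, had 0.0446 FPKM with JA/cytokinin and 11.9 FPKM with JA (log2 ratio -8.06, interval -9.46 to -6.97), and its first value rested on an estimated 6.37 fragments. AOC1 had 0.569 FPKM with JA/cytokinin and 10.0 FPKM with JA, and AOC2 had 8.42 FPKM with JA/cytokinin and 27.9 FPKM with JA, but allene oxide cyclase copies are similar and reads may be shared among them. AOS, for the step before them, had 56.2 FPKM with JA/cytokinin and 117 FPKM with JA (log2 ratio -1.05). OPR3 had 103 FPKM with JA/cytokinin and 127 FPKM with JA. Among 7 turnover genes 3 were lower, led by JRG21, a JA hydroxylase, with 57.3 FPKM with JA/cytokinin and 707 FPKM with JA (log2 ratio -3.63).

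Counts of called genes differed between the branch lists of JA output. All 5 measured genes of the branch shared with ethylene were lower, 3 of them with a pseudocount of 1 FPKM. Of 6 genes of the MYC branch 2 were higher and 1 was lower. Over all measured genes 8.88% were higher and 9.93% lower. LOX2, which the paper uses with JR2 as a JA-induced gene, was listed under synthesis here and was lower. JR2, in the MYC list, had a log2 ratio of -0.77. ERF1, a factor that JA and ethylene both induce, had 1.76 FPKM with JA/cytokinin and 18.5 FPKM with JA (log2 ratio -3.39). ORA59, a related factor, had 1.81 FPKM with JA/cytokinin and 7.99 FPKM with JA. PR4, a chitin-binding protein, had 1040 FPKM with JA/cytokinin and 2081 FPKM with JA, a ratio at the threshold. THI2.1 was low in both libraries, with 0.199 FPKM with JA/cytokinin and 0.572 FPKM with JA. In the MYC branch, VSP1, a vegetative storage protein, had 273 FPKM with JA/cytokinin and 26.2 FPKM with JA (log2 ratio 3.38). Its close copy VSP2 had 214 FPKM with JA/cytokinin and 97.6 FPKM with JA, and reads may be shared between VSP1 and VSP2. CLH1, a chlorophyllase, was lower, with 36.1 FPKM with JA/cytokinin and 106 FPKM with JA. The difference between the branches was not tested.

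Iron acquisition held some of the lowest ratios of all. Of 12 measured genes of iron uptake 8 were lower and 1 higher, with a median log2 ratio of -2.49. IRT1, the main iron transporter of the root epidermis, had 0.202 FPKM with JA/cytokinin and 400 FPKM with JA, 1977-fold lower (log2 ratio -10.95, interval -12.02 to -10.06). FRO2, the reductase that supplies it with ferrous iron, had 0.159 FPKM with JA/cytokinin and 83.9 FPKM with JA (log2 ratio -9.04). FIT, the transcription factor that drives both, had 8.81 FPKM with JA/cytokinin and 24.97 FPKM with JA, 2.83-fold lower. All 4 partners of FIT were lower. BHLH100 had 0.259 FPKM with JA/cytokinin and 71.9 FPKM with JA (log2 ratio -8.12). BHLH39 had 14.5 FPKM with JA/cytokinin and 161 FPKM with JA, and BHLH38 and BHLH101 had log2 ratios of -4.80 and -5.18, though both overlap other genes. CYP82C4, which makes an iron-mobilizing coumarin, was listed at 0 with JA/cytokinin and had 24.6 FPKM with JA. The one gene in the other direction was F6'H1, the first enzyme of coumarin synthesis, with 233 FPKM with JA/cytokinin and 77.9 FPKM with JA, and it overlaps another gene. The proton pump gene AHA2 had 201 FPKM with JA/cytokinin and 226 FPKM with JA.

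Iron storage went the other way. The ferritin genes FER1, FER3 and FER4 were all higher, and FER1 had 78.6 FPKM with JA/cytokinin and 12.2 FPKM with JA (log2 ratio 2.69). FER3 had 68.8 FPKM with JA/cytokinin and 20.1 FPKM with JA. Nicotianamine synthases, whose product binds iron for transport within the plant, were lower in 2 of 3 measured cases. NAS4 had 8.47 FPKM with JA/cytokinin and 76.8 FPKM with JA (log2 ratio -3.18), and NAS1 had 5.75 FPKM with JA/cytokinin and 46.1 FPKM with JA. The regulators PYE and BTS had log2 ratios of -1.28 and -1.62, and FRO3, a mitochondrial reductase gene that overlaps another gene, had -2.30.

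**Figure D3:**
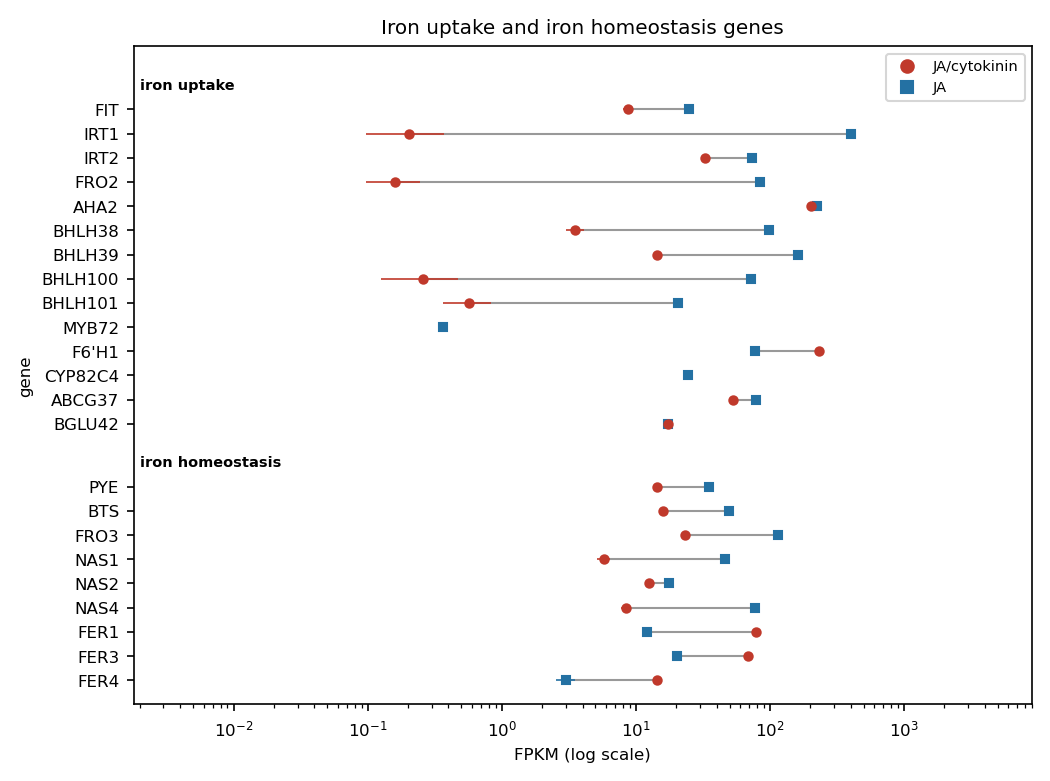
FPKM (log scale) of iron uptake and iron homeostasis genes in the JA/cytokinin library (circles) and the JA library (squares), with 95% counting intervals where a gene was above 0 in both libraries; a gene listed at 0 has no symbol for that library. IRT1, FRO2 and the BHLH genes lie to the left with JA/cytokinin, while the 3 ferritin genes lie to the right.

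Other nutrient genes were lower in part. PHO1, which loads phosphate into the xylem, had 29.2 FPKM with JA/cytokinin and 108 FPKM with JA (log2 ratio -1.89), and the uptake transporters PHT1;1 and PHT1;4 had log2 ratios of -1.26 and -1.35. SULTR1;2, the main sulfate uptake transporter, had 52.3 FPKM with JA/cytokinin and 176 FPKM with JA. NRT3.1, a partner protein of nitrate transporters, had 9.38 FPKM with JA/cytokinin and 65.1 FPKM with JA (log2 ratio -2.79). HKT1, which takes sodium out of the xylem, had 0.374 FPKM with JA/cytokinin and 7.92 FPKM with JA (log2 ratio -4.40). Most of the other transporters were not called. Of the nitrogen list 3 of 10 measured genes were lower and none higher, with NRT2.1 among the lower at under 0.04 FPKM in each library. Of the sulfate list 2 of 9 were lower, and of the phosphate list 3 of 7, against 9.93% of all measured genes. In the phosphate list SPX3 was higher at under 0.4 FPKM.

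Aquaporins, which carry water across membranes, were lower in 8 of 14 cases and higher in 1, with a median log2 ratio of -1.43. TIP2;2, of the vacuolar membrane, had 3.72 FPKM with JA/cytokinin and 120 FPKM with JA (log2 ratio -5.01). PIP1;1, of the plasma membrane, had 148 FPKM with JA/cytokinin and 812 FPKM with JA (log2 ratio -2.46). PIP2;2 had 147 FPKM with JA/cytokinin and 463 FPKM with JA. Not every member moved this way. TIP2;1 was higher, with 201 FPKM with JA/cytokinin and 64.0 FPKM with JA, and it overlaps another gene, while PIP1;3 had 194 FPKM in each library and PIP2;7 had 395 FPKM with JA/cytokinin and 414 FPKM with JA.

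Suberin is the waxy polymer that seals endodermal cells. Of 12 suberin genes 8 were higher (66.7%, against 8.88% of all measured genes) and none lower. Their median log2 ratio was 1.604, the highest of the 45 lists as deposited. CYP86A1, which makes suberin fatty acid monomers, had 13.1 FPKM with JA/cytokinin and 2.32 FPKM with JA (log2 ratio 2.51). FAR5, for suberin alcohols, had 16.7 FPKM with JA/cytokinin and 2.43 FPKM with JA (log2 ratio 2.78), and the exporter gene ABCG6 had 5.96 FPKM with JA/cytokinin and 1.14 FPKM with JA (log2 ratio 2.39). MYB41, a regulator of suberin, was low in both libraries, with 0.578 FPKM with JA/cytokinin and 0.639 FPKM with JA. The Casparian strip genes, also of the endodermis, moved less. CASP1 had 83.8 FPKM with JA/cytokinin and 65.4 FPKM with JA. Of the 9 genes only GSO1, a receptor kinase, passed 2-fold (log2 ratio 1.15), a share of 11.1%, near that of all measured genes.

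Glucosinolate genes divided by the amino acid used. Of 11 genes of the indole branch 6 were higher and none lower, with a median log2 ratio of 1.14, and of 7 measured genes of the aliphatic branch 5 were lower and none higher, with a median of -1.82. MYB34, the regulator of indole glucosinolates in roots, had 261 FPKM with JA/cytokinin and 74.6 FPKM with JA (log2 ratio 1.81). CYP79B3, the first step from tryptophan, had 103 FPKM with JA/cytokinin and 25.7 FPKM with JA (log2 ratio 2.00), and its partner CYP79B2 had 256 FPKM with JA/cytokinin and 89.1 FPKM with JA. CYP83B1 had 275 FPKM with JA/cytokinin and 86.8 FPKM with JA. On the aliphatic side, MAM1, which lengthens methionine chains, had 24.5 FPKM with JA/cytokinin and 100 FPKM with JA (log2 ratio -2.03). BCAT4, for the first step, had 104 FPKM with JA/cytokinin and 367 FPKM with JA, and it overlaps another gene. MYB28, the regulator of this branch, had 50.1 FPKM with JA/cytokinin and 79.1 FPKM with JA, short of 2-fold, and MYB29 was listed at 0 with JA/cytokinin and had 0.396 FPKM with JA.

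All 16 genes of the photosynthesis list were lower with JA/cytokinin, with a median log2 ratio of -3.83. Their summed FPKM was 57.9 with JA/cytokinin and 976 with JA. RBCS1A, a small subunit of Rubisco, had 0.920 FPKM with JA/cytokinin and 284 FPKM with JA (log2 ratio -8.27). LHCA4, an antenna protein, had 16.1 FPKM with JA/cytokinin and 99.2 FPKM with JA (log2 ratio -2.62), and it overlaps another gene. The RBCS and LHCB1 copies are nearly identical, and reads may be shared among them. Chlorophyll genes PORB, PORC and CAO were lower as well, while HEMA1, for the start of the pathway, had 14.9 FPKM with JA/cytokinin and 6.40 FPKM with JA. In these polyA-selected libraries, transcripts of the chloroplast genome took 0.0208% of FPKM with JA/cytokinin and 0.0213% with JA. Plastid content was not measured. Of the shoot markers given above, those not listed at 0 had at most 0.290 FPKM in either library, and a listed 0 need not be a low value.

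Auxin genes were changed in a few members. PIN5, an auxin carrier of the endoplasmic reticulum, had 6.62 FPKM with JA/cytokinin and 0.165 FPKM with JA (log2 ratio 5.33, interval 4.41 to 6.43), and PIN6 had 1.19 FPKM with JA/cytokinin and 0.257 FPKM with JA. The plasma membrane carriers PIN2, PIN3, PIN4 and PIN7 had log2 ratios from -0.15 to 0.82. YUC5 and YUC9, enzymes of auxin synthesis, had log2 ratios of 1.79 and 1.54. Of 10 auxin response genes 4 were higher (40.0%) and none lower, with a median log2 ratio of 0.55. IAA17, an auxin repressor, had 125 FPKM with JA/cytokinin and 41.3 FPKM with JA, and IAA1 had 20.4 FPKM with JA/cytokinin and 5.49 FPKM with JA.

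Most members of the cell identity lists were not called, and over all measured genes 8.88% were higher and 9.93% lower. None of 9 vascular patterning genes was called, among them TMO5 with 6.25 FPKM with JA/cytokinin and 10.7 FPKM with JA. Of 14 xylem genes the switches VND6 and VND7 were higher (14.3%), both at low FPKM, where ratios were more scattered. VND6, which overlaps another gene, had 3.499 FPKM with JA/cytokinin and 1.69 FPKM with JA, and VND7 had 1.22 FPKM with JA/cytokinin and 0.439 FPKM with JA. None of the others passed 2-fold, among them the wall gene CESA4, which had 5.38 FPKM with JA/cytokinin and 5.61 FPKM with JA, and the list's median log2 ratio was 0.14. Of 9 phloem genes SEOB, a sieve element protein, was higher (log2 ratio 1.57), and APL, the phloem regulator, had 37.1 FPKM with JA/cytokinin and 20.04 FPKM with JA. None of 12 root hair and none of 11 mitosis genes was called. CYCD3;1, a cyclin that cytokinin is known to induce, had 35.9 FPKM with JA/cytokinin and 11.9 FPKM with JA (log2 ratio 1.59), and it overlaps another gene. All 4 root cap genes had ratios above 0, with a median log2 ratio of 0.72 and a summed FPKM of 26.4 with JA/cytokinin and 13.8 with JA. Of these BRN1, a regulator of root cap maturation, was higher, with 10.2 FPKM with JA/cytokinin and 3.12 FPKM with JA. Of 9 lateral root genes 3 were called. GATA23 was higher (log2 ratio 1.72), and LBD16 and PUCHI were lower (log2 ratios -1.27 and -1.80). In the stem cell niche, RGF1, a root growth peptide, had 2.29 FPKM with JA/cytokinin and 6.89 FPKM with JA.

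Of 14 measured ethylene genes 5 were higher (35.7%, against 8.88% of all measured genes), all of them ACS genes for the ethylene precursor. Among the 12 with at least 1 FPKM in one library 3 were higher, where 6.48% of all such genes were. ACS2 had 3.27 FPKM with JA/cytokinin and 0.722 FPKM with JA. ACO4, for the last step, was lower, with 26.0 FPKM with JA/cytokinin and 57.5 FPKM with JA. Of 10 gibberellin genes 2 were higher and 1 was lower, where of all measured genes 8.88% were higher and 9.93% lower. GA20OX1, for gibberellin synthesis, had 2.95 FPKM with JA/cytokinin and 0.602 FPKM with JA, while GA3OX1, for the last step of that synthesis, had 3.88 FPKM with JA/cytokinin and 9.06 FPKM with JA. Of 9 clock genes 3 were lower and none higher. The clock genes PRR5, PRR7 and PRR9 had log2 ratios of -1.08, -1.73 and -2.00, while CCA1 and LHY, which act in the morning, had 0.13 and -0.02.

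**Figure D4:**
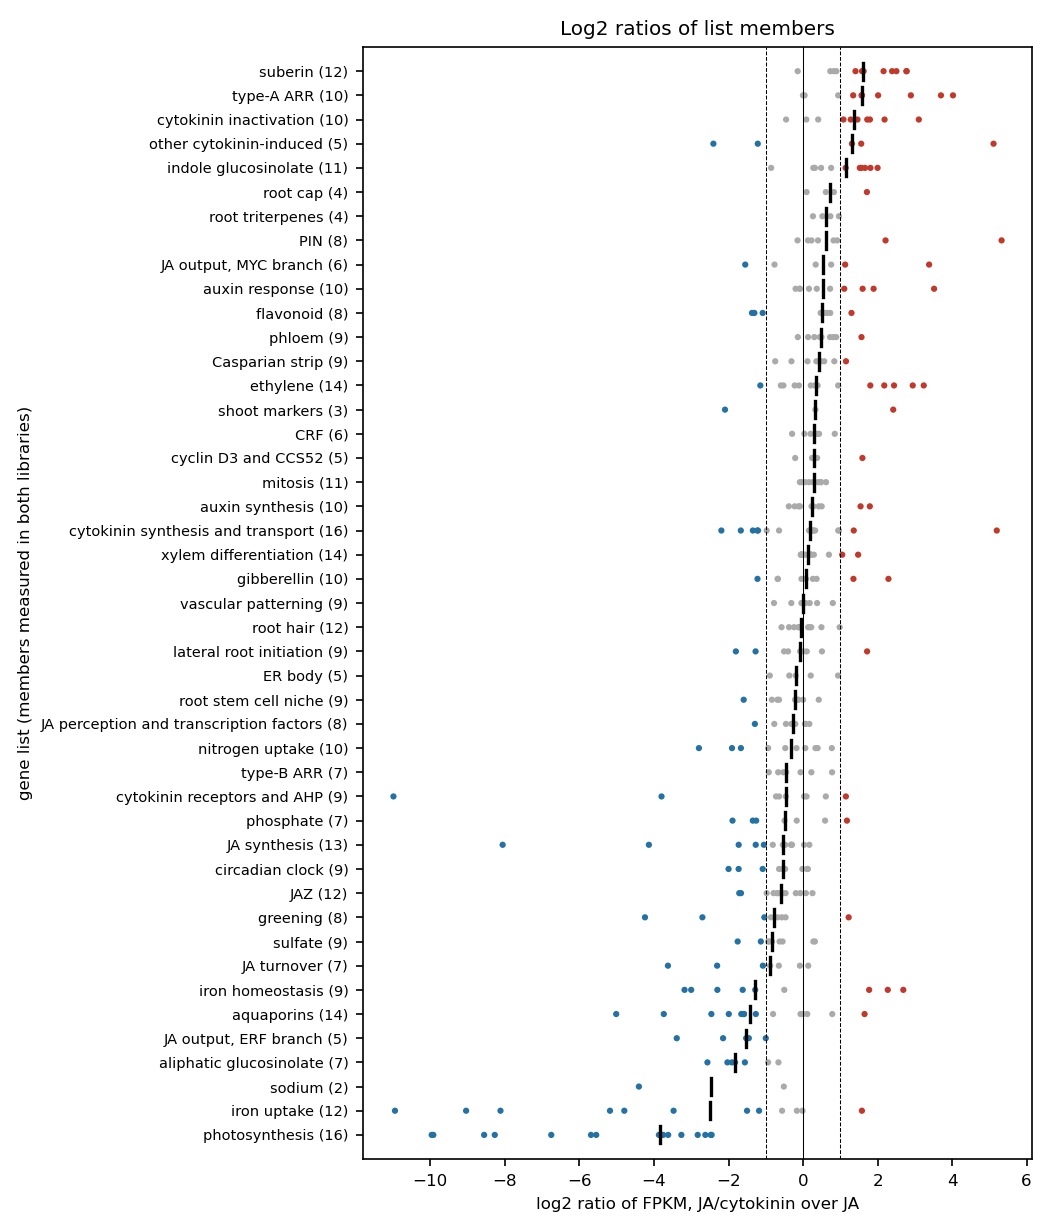
Log2 ratios of FPKM, JA/cytokinin over JA, of the measured members of 45 gene lists, with a black bar at each median and dashed lines at 2-fold; points past 2-fold are red (higher) or blue (lower). Suberin, type-A ARR and cytokinin inactivation lists have the highest medians, and photosynthesis and iron uptake the lowest.

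Among genes with at least 5 FPKM in one library and more than 3 fragments in both, the largest ratio was that of MLP328, a major latex protein-like gene, with 237 FPKM with JA/cytokinin and 1.88 FPKM with JA, 126-fold higher. GASA5, a peptide of a gibberellin-regulated family, had 124 FPKM with JA/cytokinin and 3.44 FPKM with JA (log2 ratio 5.17). ICS2, an isochorismate synthase, had 7.81 FPKM with JA/cytokinin and 0.187 FPKM with JA, and it overlaps another gene. AT2G18590, a major facilitator, had 5.76 FPKM with JA/cytokinin and 0.0323 FPKM with JA, and the JA value rested on an estimated 2.00 fragments (log2 ratio 7.48, interval 5.62 to 10.53). The lowest ratio was that of AT3G05950, a germin-like cupin, with 0.250 FPKM with JA/cytokinin and 1198 FPKM with JA, 4785-fold lower. AT4G33720, a secreted CAP protein, had 2.81 FPKM with JA/cytokinin and 1040 FPKM with JA (log2 ratio -8.53). SKOR, which releases potassium into the xylem, had 0.0327 FPKM with JA/cytokinin and 7.71 FPKM with JA, with an estimated 4.29 fragments in the first library, and it overlaps another gene. Among the largest differences in FPKM, AT2G43535, a knottin, had 5831 FPKM with JA/cytokinin and 2312 FPKM with JA. KTI1, a trypsin inhibitor, had 841 FPKM with JA/cytokinin and 2693 FPKM with JA. MT1A, a metallothionein whose gene overlaps another, had 2998 FPKM with JA/cytokinin and 7711 FPKM with JA. AT3G08520, for ribosomal protein L41, was listed at 3251 FPKM with JA/cytokinin and at 0 with JA, so an entry of 0 was not always a low value.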

How the data were processed

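Roots of Col-0 were profiled with 1 library per condition, so samples were neither grouped nor averaged. The authors made polyA-selected TruSeq libraries from total RNA, sequenced both ends and calculated FPKM per gene with Cufflinks, and the deposited FPKM table holds values for 33565 genes. The submitters' processing notes name Bowtie and TAIR10, and versions and strand settings are not given in the sources used here. The authors also deposited a count of reads per library, and unnamed percent columns that were not used.

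Log2 ratios of FPKM were taken without a pseudocount over genes above 0 in both libraries, with 2-fold as the threshold. Mapped fragments (87.2% of read pairs with JA/cytokinin and 91.2% with JA) were estimated from the step between low FPKM values, with a fragment length of 160, and gave exact intervals at the 95% level that cover counting error only. At or under 3 fragments a gene was taken as at the floor. Gene symbols, products and promoters came from RefSeq TAIR10.1, which matched 28907 of the 33565 loci. Named genes are members of 45 lists, the genes that the paper names, the 15 highest and 15 lowest ratios among genes with at least 5 FPKM in one library and more than 3 fragments in both, the 5 largest each way at the floor or at 0, and the 10 largest FPKM differences each way. For any other gene the text says that it was picked with its values in view. The members and lists were chosen with earlier results of these data known. Pseudocounts of 0.1 and 1, filters, rescaling by the median ratio or a trimmed mean (30% of log ratios and 5% of abundances) and thresholds of 1.5-fold and 3-fold were tried. One list member is not reported here. The estimates of depth and fragment length and the ratio with its interval were tested on simulated counts that held counting error only. The other steps were not tested in this way. Scripts ran in Python 3.11.15 with pandas 2.3.3, scipy 1.17.1, numpy 2.4.6 and, for plots, matplotlib 3.10.9.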

Additional observations from a re-analysis of the deposited data

How the results depend on the processing

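No paired analysis was possible because only 1 library stood for either treatment, and none could be left out. The 2046 higher genes became 3878 at 1.5-fold, 1011 at 3-fold, 820 with a pseudocount of 1 and 1277 with at least 1 FPKM in one library. The 2290 lower genes became 3667 at 1.5-fold, 1268 at 3-fold and 1265 with a pseudocount of 1. Rescaling left 1924 to 2120 higher and 2219 to 2396 lower genes. Medians of the 63 lists and families moved by less than their spread, other than that of ribosomal proteins (0.16 as deposited, 0.12 after rescaling by the median ratio or trimmed mean). PR4 no longer passed 2-fold when scaled without ribosomal RNA. Without genes that overlap another gene, a setting chosen after seeing the data, 1686 were higher and 1794 lower. In the lowest group by FPKM 51.4% of genes passed 2-fold, and the cause was not tested.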

Other observations

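Counts for some gene families outside the pathways above can be read against 8.88% higher and 9.93% lower over all measured genes. The single genes given here were picked with their values in view, apart from AT1G49570. Of 23 measured genes annotated as expansins, proteins that loosen cell walls, 9 were higher (39.1%) and 2 lower (8.7%), with a median log2 ratio of 0.52 against 0.04 for all genes. EXPB3 had 140 FPKM with JA/cytokinin and 20.8 FPKM with JA, while EXLB1 had 5.27 FPKM with JA/cytokinin and 115 FPKM with JA. Among 24 xyloglucan endotransglucosylases, which cut and join wall polymers, 5 were higher (20.8%) and 3 lower (12.5%), and XTH17 had 39.7 FPKM with JA/cytokinin and 4.15 FPKM with JA. Of 63 class III peroxidases 16 were higher (25.4%) and 10 lower (15.9%). AT1G49570 had 66.3 FPKM with JA/cytokinin and 2107 FPKM with JA, whereas AT5G64120 had 586 FPKM with JA/cytokinin and 140 FPKM with JA. Of 61 WRKY genes 3 were higher (4.92%) and 15 lower (24.6%). WRKY75 had 9.26 FPKM with JA/cytokinin and 48.1 FPKM with JA, and WRKY43 had 6.19 FPKM with JA/cytokinin and 0.356 FPKM with JA. Of 327 ribosomal protein genes 6 were higher (1.83%) and 6 lower (1.83%).

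The groups that follow were chosen after their values were seen. The 5 genes picked from the Calvin cycle, which are not the whole cycle, were all lower, with a median log2 ratio of -4.94. They include PRK and HCEF1, which were among the 15 lowest ratios and overlap other genes. PRK had 0.0428 FPKM with JA/cytokinin and 18.3 FPKM with JA. Of 8 genes picked from photorespiration 5 were lower, and AGT had 0.377 FPKM with JA/cytokinin and 44.0 FPKM with JA. Neighbouring thioredoxin-like genes on chromosome 4 were higher together. AT4G15680 had 37.4 FPKM with JA/cytokinin and 1.57 FPKM with JA, and AT4G15660, AT4G15670, AT4G15690 and AT4G15700 had log2 ratios from 2.39 to 3.42. Their copies are similar, and reads may be shared among them.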
